A study of Mus musculus with 2 samples.

Results

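The genes described here are interferon-stimulated genes. Earlier results of these data were known when the list was chosen, although it was set by name and used no measured value. It comprised 34 mouse gene symbols. Of these, 33 were found among the 32285 genes of the count matrices, and Mx1 was not analysed here. By role they comprised 3 genes of the ubiquitin-like modifier Isg15 and its handling, 14 RNA-binding and antiviral effectors, 3 sensors of nucleic acids, 4 transcription factors and 9 interferon-induced GTPases.

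Interferons act through receptors on the cell surface that activate Janus kinases and STAT proteins. Type I interferons (alpha and beta) lead mainly to a complex with STAT2 and IRF9 that binds the interferon-stimulated response element (ISRE), whereas interferon gamma acts mainly through the gamma-activated site (GAS). Genes such as Isg15 and the Ifit family are known as strong targets of type I interferon, and the guanylate-binding proteins, the immunity-related GTPases and Irf1 as strong targets of interferon gamma, with wide overlap between both sets. Most cell types can induce them, vessel cells, fibroblasts and leukocytes of a joint included.

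The data were 2 droplet single-cell RNA-seq libraries of the temporomandibular joint (TMJ, the jaw joint), in which every transcript read is counted once by its molecular barcode, or UMI. One library was made from WT mice and the other from Prox1 mutant mice, both C57BL/6, 8 to 10 weeks old, and both given complete Freund's adjuvant (CFA, an oil emulsion with killed mycobacteria that provokes arthritis) into the joint. The study's text describes the mutant as Prox1+/- and the mice as female, and the number of animals pooled per library was not given in the sources used here. Prox1 is the transcription factor that sets lymphatic endothelial identity, and the study asked what reduced lymphatic function changes in the arthritic joint. No uninjected joint was part of these libraries, so the levels below are those of CFA-injected joints in both groups.

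After filtering, the WT library held 4352 cells with 48366846 UMIs (median 6997 per cell) and the mutant library 5757 cells with 54330221 UMIs (median 4848). Levels are given as CPM, the UMIs of a gene per 1000000 UMIs of the cells in question, first for WT and then for the mutant. Prox1 itself stood at 11.6 and 5.80 CPM over all cells. The mix of cells differed, with 1000 and 517 endothelial-like cells, so these values do not measure gene dose within a cell type. The members took 164389 UMIs (0.340%) in WT and 171951 UMIs (0.316%) in the mutant. The cells fell into 44 clusters, of which 32 could be named from marker genes. Names such as "endothelial-like" stand for clusters named in this way, and unnamed clusters held 12.5% of the WT cells but 36.6% of the mutant cells. Since each condition had 1 library, no p-value was computed. Intervals are at 95%, cover counting error only, and hold no error between animals.

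The upstream sequences of 7 members are shown as examples, and they were chosen after their values were seen. None of these 7 is among the members flagged at the end as past 1.5-fold in opposite directions. The sequences are the 160 bases before the start of transcription in RefSeq (mouse build GRCm38), written 5′ to 3′ on the strand of the gene, with capitals marking each match to the ISRE letters (GAAA, any 2 bases, GAAA, on either strand) or the GAS letters (TTC, any 3 bases, GAA, which read the same on both strands). Isg15, which encodes the ubiquitin-like modifier, lies at chr4:156200819-156200978, minus strand. Ifit1, an RNA-binding effector, lies at chr19:34640729-34640888, plus strand. Rsad2, which encodes the antiviral enzyme viperin, lies at chr12:26456453-26456612, minus strand. The windows of the GTPase genes are Gbp2 at chr3:142620503-142620662, plus strand, Gbp7 at chr3:142530176-142530335, plus strand, and Igtp at chr11:58199396-58199555, plus strand. The last is Irf1, a transcription factor, at chr11:53769854-53770013, plus strand.
Isg15: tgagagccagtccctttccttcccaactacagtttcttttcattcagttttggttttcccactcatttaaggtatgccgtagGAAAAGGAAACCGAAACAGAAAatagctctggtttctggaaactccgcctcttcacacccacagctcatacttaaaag
Ifit1: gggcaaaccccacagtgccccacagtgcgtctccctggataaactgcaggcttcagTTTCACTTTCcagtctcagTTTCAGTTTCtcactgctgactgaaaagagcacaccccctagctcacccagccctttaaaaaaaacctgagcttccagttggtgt
Rsad2: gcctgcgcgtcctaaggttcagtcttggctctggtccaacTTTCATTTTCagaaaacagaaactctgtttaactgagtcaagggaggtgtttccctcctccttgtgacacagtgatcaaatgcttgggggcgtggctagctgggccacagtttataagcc
Gbp2: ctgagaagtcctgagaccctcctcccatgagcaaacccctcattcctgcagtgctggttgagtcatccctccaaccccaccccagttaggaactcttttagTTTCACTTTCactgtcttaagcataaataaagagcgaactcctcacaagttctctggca
Gbp7: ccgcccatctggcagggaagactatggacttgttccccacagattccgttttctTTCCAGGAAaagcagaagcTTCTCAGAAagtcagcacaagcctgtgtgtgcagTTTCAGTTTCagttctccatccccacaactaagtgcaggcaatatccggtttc
Igtp: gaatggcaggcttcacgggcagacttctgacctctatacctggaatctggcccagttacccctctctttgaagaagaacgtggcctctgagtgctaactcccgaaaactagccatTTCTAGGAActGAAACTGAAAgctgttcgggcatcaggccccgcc
Irf1: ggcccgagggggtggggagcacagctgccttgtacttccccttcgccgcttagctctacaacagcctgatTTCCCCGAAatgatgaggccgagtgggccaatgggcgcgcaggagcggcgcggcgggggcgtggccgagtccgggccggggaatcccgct
The Isg15 window held 3 overlapping ISRE matches, the Ifit1 window 2, and those of Rsad2 and Gbp2 1 each, with no GAS match in any of these. Gbp7 held 1 ISRE and 2 GAS matches, Igtp 1 of each, and Irf1 a GAS match with no ISRE match. Over the 26 members with a promoter in the table (250 bases before to 50 bases after the start), 16 (61.5%) held an ISRE match on either strand in at least 1 promoter, as did 3.99% of all 27025 genes in the table. A GAS match was present in 8 members (30.8%) and in 9.55% of all genes. Matches may overlap each other, as the GAS and ISRE letters did in Bst2, and a match is a description of letters, not a binding site. The promoters of Mx1, Usp18, Gbp4, Iigp1, Zbp1, Rtp4, Dhx58 and Parp14 were not among those used.

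Across the joint, endothelial-like cells carried the highest share of member transcripts. Endothelial-like cells reached a summed level of 8180 CPM (interval 8113 to 8247) in the WT library and 8520 CPM (8436 to 8604) in the other. Adipocyte-like cells had sums of 7317 CPM from 6 WT cells and 7490 CPM from 117 mutant cells, too few WT cells for a ratio. By the mean over cells they were at 7107.5 and 4746 CPM. Of these mutant cells, 93 lay in cluster 32, which had no WT cells, at 4051 CPM, and 24 in cluster 41 at 8726 CPM. Those 24 cells held 4626 of the 5398 mutant member UMIs, 771 of them in 1 cell. Pericyte-like cells followed at 5067 and 4547 CPM, muscle stem-like cells at 4230 and 3029 CPM, and fibroblast-like cells at 3633 and 3625 CPM. Several leukocyte types lay in the middle of this order. Monocyte-like cells were at 3401 and 2780 CPM, neutrophil-like cells at 3339 and 2603 CPM, macrophage-like cells at 2368 and 3182 CPM, and T-like cells at 2022 and 2359 CPM. At the low end were B-like cells (733 and 1306 CPM), granulocyte-monocyte progenitor-like cells (940 and 1164 CPM), epithelial-like cells (868 and 938 CPM) and chondrocyte-like cells (386 and 1509 CPM). By these pooled levels, macrophage-like cells lay below neutrophil-like and monocyte-like cells in WT and above both in the mutant. Monocyte-like (3284 to 3521 CPM) and neutrophil-like cells (3268 to 3411 CPM) did not differ beyond their counting intervals in WT. By the mean over cells, neutrophil-like cells were at 6900 and 4403 CPM, above macrophage-like cells (2843 and 3567 CPM) in both libraries. Monocyte-like cells were at 3222 and 2507 CPM by that mean, and T-like cells at 2065 and 1753 CPM. Among the T-like cells 1 mutant cell held 335 of 1861 member UMIs. With cells assigned by marker UMIs, the sum over both libraries was 1885 CPM in neutrophil-like and 3771 CPM in macrophage-like cells.

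**Figure D1:**
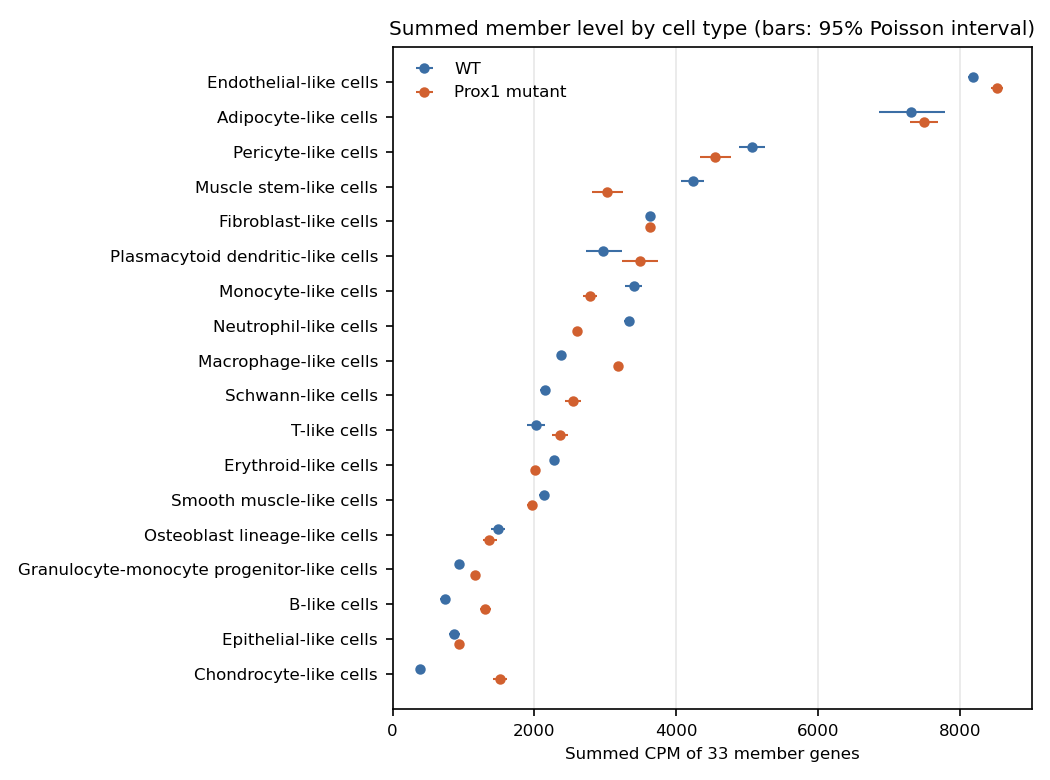
Summed level of the 33 members (CPM, x axis) in each of 18 cell types (y axis), WT in blue and Prox1 mutant in orange, with 95% Poisson intervals. Endothelial-like cells lie highest, at 8180 and 8520 CPM, and macrophage-like cells are higher and neutrophil-like cells lower in the mutant.

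Each role had its own distribution over the cell types. Of the 33 members, 9 had their highest level in adipocyte-like cells, 9 in endothelial-like cells, 6 in monocyte-like cells, 3 each in erythroid-like and muscle stem-like cells, 2 in neutrophil-like cells and 1 in plasmacytoid dendritic-like cells. These levels pool both libraries, and those of adipocyte-like cells come mostly from mutant cells, mainly the 24 cells of cluster 41. A UMI marks 1 transcript end, so levels are not divided by gene length. Iigp1, a GTPase that attacks the vacuoles of intracellular parasites, had the most UMIs of all members (29652 in WT and 31637 in the mutant). It stood at 2092 and 2320 CPM in endothelial-like cells, 1450 and 1507 CPM in pericyte-like cells, and 948 and 1330 CPM in fibroblast-like cells, and at under 50 CPM in neutrophil-like cells of both libraries. Gbp4, a guanylate-binding protein, was largely an endothelial gene here, with 737 and 531 CPM in endothelial-like cells and at most 174 CPM in any other type.

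Bst2 encodes tetherin, which holds budding virus at the cell surface, and plasmacytoid dendritic-like cells had its highest level, 1852 CPM from 336 WT UMIs and 738 CPM from 161 mutant UMIs. Irf1 was high in muscle stem-like cells (737 and 607 CPM), endothelial-like cells (557 and 499 CPM) and Schwann-like cells (531 and 510 CPM). All 3 nucleic acid sensors had their highest level in monocyte-like cells. Ifih1, which encodes the RNA sensor MDA5, was at 252 and 149 CPM in monocyte-like cells, and Zbp1, a sensor of Z-form nucleic acids, at 91.6 and 109 CPM in macrophage-like cells.

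**Figure D2:**
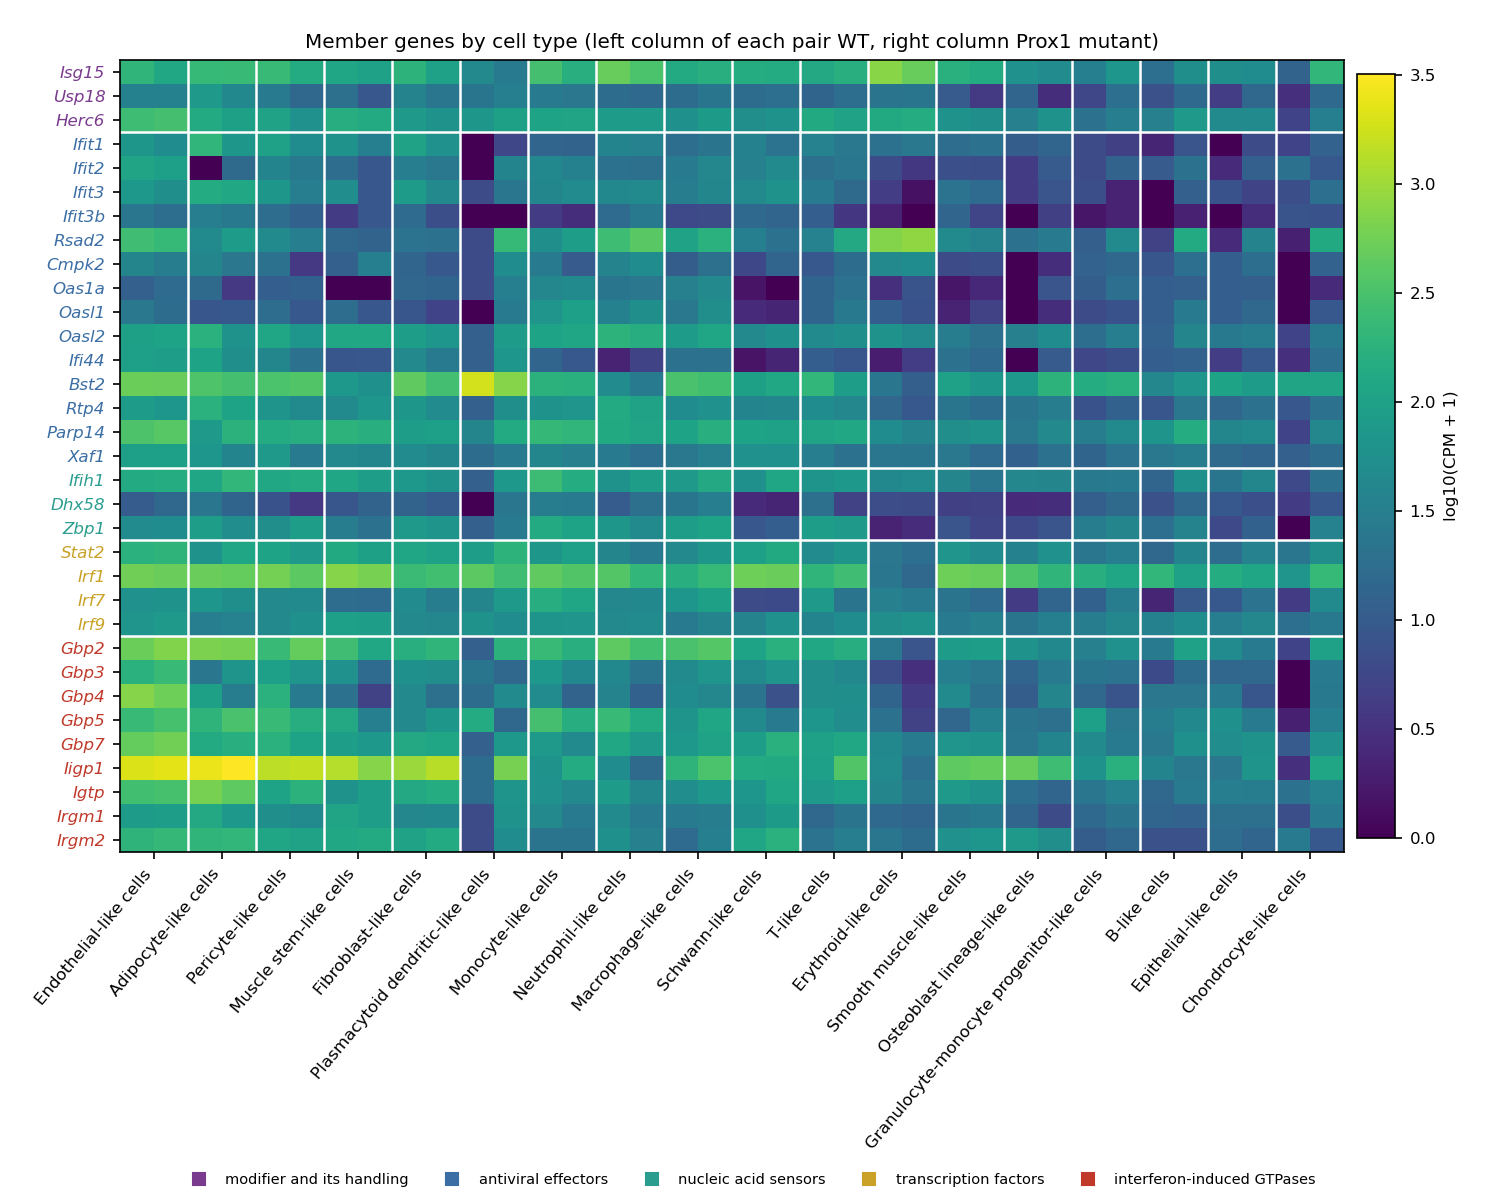
Level of each of the 33 members, as log10(CPM + 1), in 18 cell types, with WT in the left and Prox1 mutant in the right column of each pair, and gene names coloured by role. Iigp1 forms a bright row over the vascular and stromal types, and Isg15 and Rsad2 stand out in erythroid-like and neutrophil-like cells.

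Erythroid-like cells held few members at a high level. In erythroid-like cluster 6, Rsad2 was at 1290 and 1677 CPM, and Isg15 at 1263 and 876 CPM. Both together made up most of the summed level of 3399 and 3403 CPM. Several other members were nearly missing, with Ifit2 at 2 and 4 UMIs, Ifit3 at 3 and 0 UMIs, and the sensor Zbp1 at 0 and 2 UMIs. In cluster 9, whose leading genes include histones and Mki67, both genes lay below their level in cluster 6, with Rsad2 at 228 and 197 CPM and Isg15 at 374 and 246 CPM. The remaining 3 erythroid-like clusters were small in WT, with 11 and 82 cells in cluster 33, 8 and 55 in cluster 35 and 9 and 49 in cluster 36, so the mix of clusters differed between the libraries. Cluster 35 had the highest sum of the erythroid-like clusters, 5453 and 6867 CPM, and Rsad2 made up 59.1% and 68.8% of its member UMIs. In cluster 33 the sum was 1985 and 1788 CPM, and in cluster 36 it was 1287 and 1114 CPM.

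Between the libraries, the sum over all cells differed little, with a log2 ratio of mutant to WT of -0.10 (interval -0.11 to -0.09) against a median of -0.08 over all genes. Single members were compared where a gene had at least 50 UMIs over both libraries, and a member was counted when it lay at least 1.5-fold from WT. Over all cells 2 members were higher and 2 lower by this measure, where 10.0% of all genes were higher and 14.3% lower, so the members did not stand apart there. Rsad2 (145.6 to 232 CPM, 0.67 on the log2 scale) and Oasl1 (17.2 to 26.0 CPM) were the higher pair, and Gbp4 (145.6 to 72.2 CPM, -1.01) and the RNA-binding effector Ifit1 (42.4 to 28.3 CPM, -0.59) the lower pair. By cell type the directions of the members differed. In endothelial-like cells their counts past 1.5-fold were near the shares of all genes. The same held in macrophage-like cells once clusters were weighted equally.

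Endothelial-like cells kept nearly the same sum, with a log2 ratio of 0.06 (0.04 to 0.08), and 0 of 33 members were higher and 2 were lower past 1.5-fold, beside 6.39% and 6.45% of all genes. Isg15 fell from 195 to 123 CPM (-0.67, interval -0.81 to -0.52), and Oasl1, a member of the oligoadenylate synthetase-like family, from 24.4 to 16.2 CPM (-0.59, -1.002 to -0.191). Smaller differences of the same sign were measured in Ifit1 (69.6 to 49.4 CPM, -0.50), in Ifit3 (72.1 to 54.1 CPM, -0.41) and in Gbp4 (-0.47, -0.54 to -0.40). The other guanylate-binding proteins lay on the other side. Gbp2 was at 528 and 699 CPM (0.41, 0.34 to 0.47), Gbp3 at 175 and 239 CPM (0.45), Gbp5 at 234 and 309 CPM (0.40) and Gbp7 at 472 and 569 CPM (0.27). None of these reached 1.5-fold, although their counting intervals leave out 0. Dhx58, a helicase related to the RNA sensors, had the highest ratio (0.58, 0.07 to 1.10) from 66 and 65 UMIs.

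Within the endothelial-like cells, cluster 0, with Car4 and Gpihbp1 among its leading genes, had Gbp2 at 407 and 739 CPM (0.86). Cluster 7, with Gja5 and Sox17, had it at 330 and 495 CPM (0.58), and cluster 12, with the leukocyte adhesion genes Selp and Sele, at 768 and 788 CPM (0.04). Isg15 was lower in the mutant in all 3 of these clusters, at 193 and 99.4 CPM in cluster 0, 242 and 202 CPM in cluster 7, and 170 and 95.7 CPM in cluster 12. These differences between clusters were not tested.

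Fibroblast-like cells had the same sum in both libraries (log2 ratio -0.00, -0.03 to 0.02), but its make-up differed. Of 33 members, 11 were lower and 1 higher past 1.5-fold, beside 7.02% and 6.39% of all genes. The lower members were mostly effectors and modifiers. Isg15 fell from 182 to 99.2 CPM (-0.87, -1.02 to -0.73) and Usp18, the enzyme that removes Isg15 from proteins, from 35.7 to 22.4 CPM (-0.67). Ifit1 fell from 102 to 58.0 CPM (-0.82), Ifit3 from 81.7 to 43.3 CPM (-0.92) and Ifit3b from 15.9 to 6.0 CPM (-1.41). Ifit3 shares 14.9% of its 3′ sequence words with Ifit3b, so reads may be split between them. Irf7, the factor that amplifies type I interferon, fell from 47.6 to 28.2 CPM (-0.75), and Bst2 from 448 to 288 CPM (-0.64).

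Most GTPases of the same cells lay on the other side. Gbp5, a guanylate-binding protein known for its part in inflammasome assembly, rose from 43.0 to 70.3 CPM (0.71, 0.50 to 0.92). Iigp1 was at 948 and 1330 CPM (0.49, 0.44 to 0.53) and Irgm2 at 105 and 139 CPM (0.41). Gbp3 (-0.12) and Gbp7 (-0.10) lay slightly below 0, and Gbp4 fell from 43.7 to 18.5 CPM (-1.24). Summed by role, the log2 ratio was -0.68 for the modifier genes, -0.54 for the effectors, -0.24 for the sensors, -0.00 for the transcription factors and 0.36 for the GTPases. The GTPase sum was 1656 and 2119 CPM, of which Iigp1 alone held 948 and 1330 CPM, so its ratio follows mainly this gene.

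The fibroblast-like clusters differed in Iigp1. In cluster 2, led by Pi16 and Clec3b with the lining gene Prg4, the sum was 4270 and 4452 CPM, with Isg15 at 216 and 125 CPM and Iigp1 at 1127 and 1656 CPM. In cluster 13, led by Postn and Fmod, the sum fell from 2019 to 1159 CPM (-0.80, -0.88 to -0.72), and 15 of 23 members were lower and 0 higher, beside 7.15% and 10.1% of all genes. Isg15 there fell from 95.5 to 21.8 CPM (-2.13) and Bst2 from 350 to 123 CPM (-1.51), while Iigp1 was at 496 and 358 CPM (-0.47). With both clusters given equal weight the log2 ratio of the sum was -0.37, and 12 members were lower and 1 higher, beside 7.28% and 7.57% of all genes.

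Macrophage-like cells had a higher sum in the mutant, 2368 against 3182 CPM (log2 ratio 0.43, 0.40 to 0.45), and 31 of 33 members were above 0. The whole transcriptome leaned the same way, with a median log2 ratio of 0.21 over all genes. Of the members, 10 were higher and 0 lower past 1.5-fold, beside 17.2% and 4.37% of all genes. Relative to the median gene 4 were higher and 0 lower, beside 9.12% and 9.20% of all genes. Oasl1 had the highest ratio, 24.5 to 52.7 CPM (1.11, 0.91 to 1.31), followed by Irgm2 (16.04 to 31.4 CPM, 0.97), Cmpk2, a mitochondrial nucleotide kinase encoded beside Rsad2 (9.90 to 18.6 CPM, 0.91), and Gbp5 (65.0 to 119 CPM, 0.87). Iigp1 rose from 187 to 325 CPM (0.80), Ifih1 from 77.3 to 130 CPM (0.75) and Rsad2 from 104 to 172 CPM (0.73). The lowest ratios were those of Gbp4 (-0.27), Bst2 (-0.15) and Ifi44 (0.05).

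The macrophage-like cells held a C1q-positive cluster, 3, and an inflammatory cluster, 5, marked by Mmp12 and Spp1, and the mix of both differed, with 253 cells in cluster 3 and 257 in cluster 5 for WT, against 355 and 197 for the mutant. Cluster 3 had the higher sum in both libraries (3712 and 4281 CPM) and cluster 5 the lower (1760 and 2120 CPM). Within a cluster the log2 ratio of the sum was 0.21 in cluster 3 and 0.27 in cluster 5, against medians over all genes of 0.10 and 0.19. With both clusters given equal weight, 5 of 33 members were higher and 0 lower, beside 12.8% and 3.72% of all genes, so the higher share was near that of all genes. With cells assigned by marker UMIs 2 of 33 were higher, beside 13.9% of all genes. Rsad2 was at 132 and 255 CPM in cluster 3 (0.95, 0.80 to 1.10) and at 90.5 and 91.02 CPM in cluster 5 (0.01, -0.15 to 0.17). Iigp1 was at 373 and 443 CPM in cluster 3 (0.25) and at 103 and 210 CPM in cluster 5 (1.04). These differences between clusters were not tested.

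Neutrophil-like cells had a lower sum in the mutant, 3339 against 2603 CPM (-0.36, -0.40 to -0.32), with 13 members lower and 4 higher of 32, beside 11.6% and 9.56% of all genes. All 9 GTPases were among the lower members, from Iigp1 (49.5 to 15.3 CPM, -1.69), Gbp4 (36.2 to 11.3 CPM, -1.67) and Igtp (86.1 to 39.1 CPM, -1.14) to Gbp2 (436 to 274 CPM, -0.67). Irf1 fell from 368 to 208 CPM (-0.82, -0.96 to -0.68) and Isg15 from 491 to 326 CPM (-0.59). The 4 higher members were Rsad2 (258 to 399 CPM, 0.63, 0.50 to 0.77), Oasl1 (33.8 to 54.1 CPM, 0.68), Ifit3b (15.7 to 24.9 CPM, 0.66) and Dhx58 (24 and 66 UMIs, 0.99). Summed by role, the GTPases were at 0.36 in fibroblast-like and -0.81 in neutrophil-like cells, the effectors at -0.54 and 0.09, and the modifier genes at -0.68 and -0.48. Iigp1 made up most of the GTPase sum in fibroblast-like cells, where Gbp3, Gbp4 and Gbp7 were lower, and a small part of it in neutrophil-like cells. The GTPase sum was at 0.42 in fibroblast-like cluster 2 and at -0.55 in cluster 13, and the effector sum at -0.11 in neutrophil-like cluster 21. The difference between both types was not tested.

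The neutrophil-like clusters differed in how far the members fell. Cluster 16, led by Il1f9 and Acod1, had the highest sum of any cluster, 13535 CPM over 125 WT cells (median 2634 UMIs) and 12405 CPM over 99 mutant cells (median 3276 UMIs). Its Gbp2 was at 2052 and 1760 CPM (-0.22), its Irf1 at 1263 and 1164 CPM (-0.12) and its Rsad2 at 1091 and 2284 CPM (1.07). Cluster 21, led by Retnlg and Cxcr2, fell from 3857 to 2511 CPM (-0.62, -0.70 to -0.54), with Gbp5 from 197 to 32.2 CPM (-2.61), Gbp2 from 442 to 132 CPM (-1.75) and Irf1 from 476 to 161 CPM (-1.56). The immature cluster 15, with Camp and Ngp, had low sums of 702 and 679 CPM, although its Irf1 was also lower (112 and 39.8 CPM, -1.50). Cluster 16 held 125 of the 316 WT and 99 of the 337 mutant neutrophil-like cells, and with the 3 clusters weighted equally 10 members were lower and 4 higher of 32, beside 12.2% and 12.6% of all genes. Where cells were assigned by their marker UMIs instead of clusters, 6 of 33 members were lower and 1 higher, beside 8.01% and 12.2% of all genes, and Iigp1 was higher in the mutant (0.52), as it was with log-normalization and no integration (0.80).

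**Figure D3:**
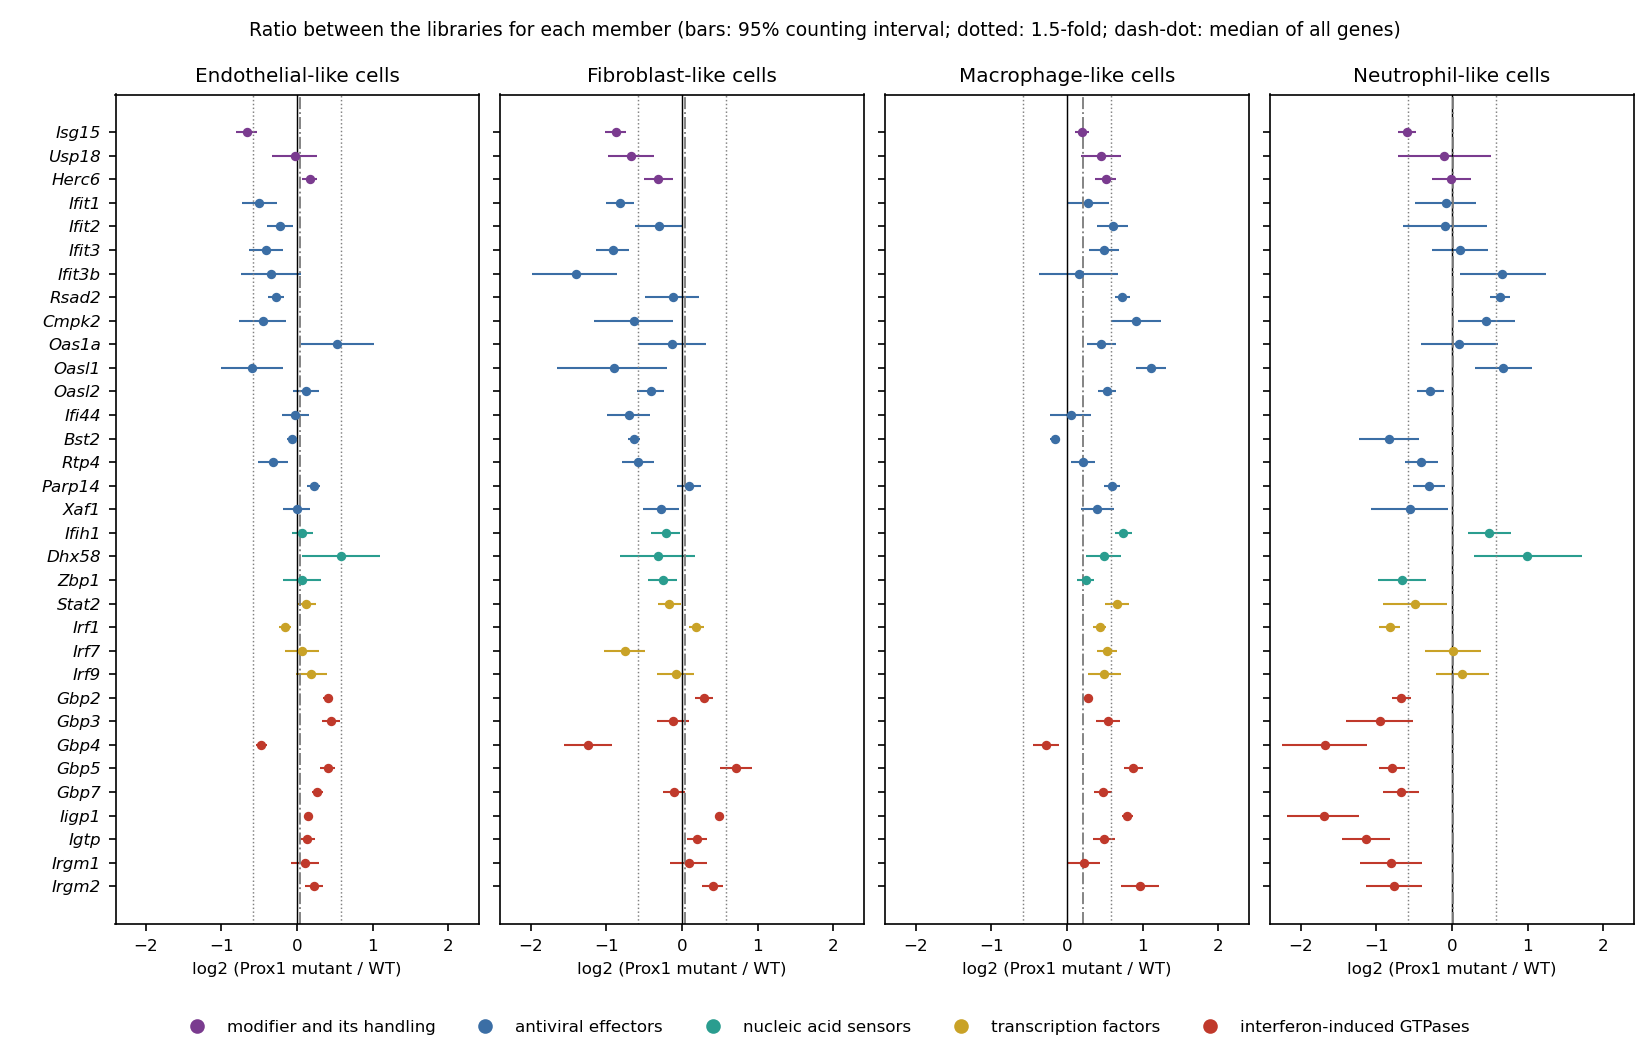
Log2 ratio of Prox1 mutant to WT (x axis) for each member in endothelial-like, fibroblast-like, macrophage-like and neutrophil-like cells, with 95% counting intervals, the 1.5-fold limits dotted and the median of all genes dash-dotted. The GTPases lie below 0 in neutrophil-like cells, while in fibroblast-like cells most modifier and effector genes do.

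**Figure D4:**
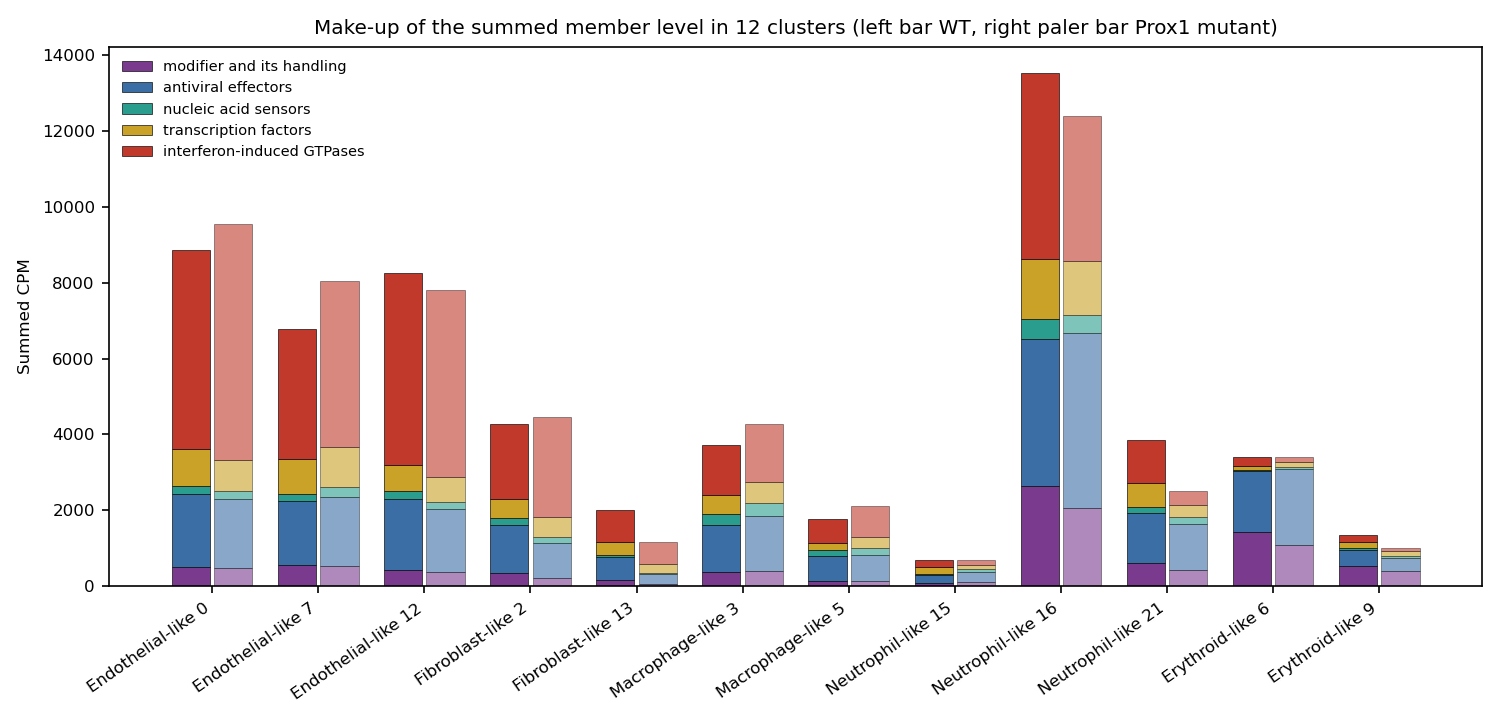
Summed CPM of the members by role in 12 clusters, WT in the left and Prox1 mutant in the paler right bar. Neutrophil-like cluster 16 reaches 13535 and 12405 CPM, and the bars of fibroblast-like cluster 13 and neutrophil-like cluster 21 are shorter in the mutant.

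After every cell had been thinned to 2000 UMIs, at least 10 member UMIs (0.5%) were found in 71.5% of WT and 74.7% of mutant endothelial-like cells, in 19.6% and 22.01% of fibroblast-like cells, and in 19.2% and 21.1% of macrophage-like cells. The intervals of each of these pairs overlap. In neutrophil-like cells the share was 32.5% (26.9% to 38.4%) for WT against 22.8% (18.2% to 28.0%) for the mutant, and these intervals overlap slightly. After thinning to 4000 UMIs the same share of member UMIs was reached by 14.2% and 15.2% of neutrophil-like cells. That depth also leaves out most cells of cluster 16, whose medians lie under it, so the depth and the choice of cells cannot be told apart. At 2000 UMIs the share in B-like cells, a type with a low summed level, was 0% of 119 WT cells, which allows up to 3.05%. It was 4.12% (1.13% to 10.2%) of 97 mutant cells, so these intervals overlap too. Cells under that depth were left out, 48 WT and 39 mutant neutrophil-like cells among them, and without thinning 95.3% and 95.8% of neutrophil-like cells held any member UMI. A small part of the neutrophil-like cells carried much of the member signal, since the top 10% of them held 47.1% of their thinned member UMIs in WT and 59.6% in the mutant. The same share was 24.0% and 23.3% in endothelial-like cells, where the signal was spread over most cells.

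The members were counted in the same way in the other cell types, with the shares of all genes in brackets. Muscle stem-like cells had 1 of 16 members higher and 3 lower, beside 489 and 431 of 3306 genes, and their sum was 4230 and 3029 CPM (-0.48, -0.60 to -0.37). Smooth muscle-like cells had 1 of 25 higher [6.00%] and 4 lower [9.37%], and pericyte-like cells 3 of 22 [9.60%] and 9 [13.9%]. Schwann-like cells had 6 of 23 higher [9.67%] and 3 lower [14.9%], osteoblast lineage-like cells 3 of 8 [23.2%] and 2 [11.1%], epithelial-like cells 6 of 21 [17.2%] and 2 [15.4%], and chondrocyte-like cells 6 of 7 [30.2%] and 0 [18.1%]. Genes entered with at least 50 UMIs over both libraries, so a gene with few WT UMIs entered only where its mutant count was high. In chondrocyte-like cells, with few member UMIs in WT, the count of higher members was in part set by this limit. It is not a result about the members. In epithelial-like, granulocyte-monocyte progenitor-like, plasmacytoid dendritic-like and B-like cells, members such as Rsad2 also passed the limit mainly through mutant counts. The counts of higher members in these types were likewise in part set by the limit and are not a result about the members. Chondrocyte-like cells also differed in depth, with medians of 31748.5 and 3359 UMIs per cell, as did epithelial-like cells, with 11853.5 and 3519. The medians of granulocyte-monocyte progenitor-like cells, counted next, were 21520 and 3944 UMIs. Among leukocytes, monocyte-like cells had 2 of 28 higher [18.8%] and 7 lower [10.7%], plasmacytoid dendritic-like cells 3 of 5 [20.7%] and 2 [18.2%], granulocyte-monocyte progenitor-like cells 9 of 20 [13.3%] and 2 [8.07%], B-like cells 9 of 12 [16.6%] and 2 [17.2%], and T-like cells 2 of 20 [16.9%] and 2 [12.5%]. The mix of clusters differed in B-like cells, with 136 and 79 cells in cluster 19 and 11 and 43 in cluster 38. In cluster 19 the sum was 671 and 657 CPM (-0.03, -0.23 to 0.17). There 2 of 5 members were higher and 1 lower, beside 556 and 519 of 4604 genes. In cluster 38 the sum was 1549 and 2193 CPM, and 1 mutant cell held 212 of the 1218 member UMIs of B-like cells. Erythroid-like cells, also with a different mix of clusters, had 1 of 27 higher [8.37%] and 11 lower [17.7%]. A share of members near that of all genes, as in T-like cells, is not a result about the members.

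Past 1.5-fold, Gbp4 and Rsad2 differed mainly in 1 direction over the cell types. Gbp4 was lower in the mutant in 8 of the 9 types in which it could be compared, and past 1.5-fold in 6 of them. It fell from 174 to 27.8 CPM in pericyte-like cells (-2.64), from 47.95 to 11.95 CPM in monocyte-like cells (-2.004) and from 46.9 to 19.4 CPM in smooth muscle-like cells (-1.27). In these types the mutant count of Gbp4 was under the limit on UMIs over both libraries. The limit was passed there mainly through the WT count, so the lower direction was favoured by it. The count of 8 of 9 types was thus in part set by the limit. In the pericyte-like cells the 10 neutrophil markers summed to 180 and 10087 CPM, with 8 and 9 detected, and the 6 immature neutrophil markers to 70.1 and 3760 CPM, with 6 detected in each. Their part in the lower members of pericyte-like cells was not tested. Its sequence shares 14.2% of its 3′ words with Gbp6, Gbp8, Gbp9, Gbp10 and Gbp11, and it overlaps Gbp8 and Gbp9 on the same strand, so its counts are uncertain.

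Rsad2 was higher past 1.5-fold in 9 of 14 types. Beside neutrophil-like, macrophage-like and monocyte-like cells (55.4 to 87.3 CPM, 0.66), these were granulocyte-monocyte progenitor-like cells (10.5 to 45.4 CPM, 2.12), T-like cells (35.1 to 131 CPM, 1.89), B-like, epithelial-like, chondrocyte-like and plasmacytoid dendritic-like cells. In the last 4 the WT library held only a few UMIs. With a limit of 50 UMIs over both libraries, Rsad2 could be compared there only because its mutant count was high. The direction in these 4 types was thus largely set by the limit. In granulocyte-monocyte progenitor-like and T-like cells the WT count was also under 50 UMIs, and the limit was passed through the mutant count. The direction in these was thus favoured by the limit too. B-like cells had 3 and 130 UMIs (5.17, 3.60 to 7.47), epithelial-like cells 1 and 112 (4.42, 1.91 to 9.74), chondrocyte-like cells 1 and 80 (7.04, 4.52 to 12.4) and plasmacytoid dendritic-like cells 1 and 49 (5.35, 2.80 to 10.7). The 49 UMIs came from 2 of 23 cells. In that type 1 mutant cell held 296 of 760 member UMIs, and while the pooled sum was 2970 and 3486 CPM, the mean over cells was 2710 and 2154 CPM. Schwann-like cells went the other way (60 and 15 UMIs, -0.73, -1.65 to 0.11). By less than 1.5-fold, Rsad2 was also lower in endothelial-like (272 and 224 CPM), smooth muscle-like (46.3 and 35.9 CPM) and fibroblast-like cells (20.9 and 19.2 CPM). It was higher by less than 1.5-fold in erythroid-like cells (708 and 835 CPM). Pericyte-like cells, with too few UMIs for a ratio, were at 46.8 and 30.6 CPM.

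Erythroid-like cells had the highest Rsad2. Among the types with higher Rsad2, erythroid markers were also higher in the mutant in chondrocyte-like, B-like, granulocyte-monocyte progenitor-like and epithelial-like cells. The same held in monocyte-like, macrophage-like, neutrophil-like and plasmacytoid dendritic-like cells. In T-like cells these markers were not higher, at 2731 and 2346 CPM (4 of 8 and 8 of 8 detected). The 8 erythroid markers summed to 38.2 CPM in WT chondrocyte-like cells, where 1 of 8 was detected, and to 23660 CPM in mutant ones, where 8 of 8 were. In B-like cells they summed to 66.9 CPM (5 of 8 detected, Slc4a1, Klf1 and Epor at 0) and 5757 CPM (6 of 8, Klf1 and Epor at 0), and in granulocyte-monocyte progenitor-like cells to 55.5 CPM (2 of 8) and 10860 CPM (7 of 8, Epor at 0). In epithelial-like cells all 8 were detected in both libraries, at 1504 and 8666 CPM. At the ratio of Rsad2 to these markers in mutant erythroid-like cells, their level would carry 183 CPM of Rsad2 in mutant chondrocyte-like cells, where 132 CPM was measured, 67.1 CPM in epithelial-like cells (35.8 CPM measured) and 84.2 CPM in granulocyte-monocyte progenitor-like cells (45.4 CPM measured). In these 3 types the value at that ratio exceeded the measured Rsad2. It would carry 44.6 of the 139 CPM in B-like cells and 18.2 of the 131 CPM in T-like cells. In monocyte-like cells it would carry 21.4 of the 87.3 CPM, in macrophage-like cells 12.7 of the 172 CPM and in neutrophil-like cells 22.5 of the 399 CPM. In all of these it was below the measured level. The erythroid markers of monocyte-like cells summed to 55.4 CPM in WT (4 of 8 detected) and 2768 CPM in the mutant (6 of 8). The 10 neutrophil markers also differed in plasmacytoid dendritic-like cells (265 and 10223 CPM, with 6 and 9 of 10 detected), and at the ratio of mutant neutrophil-like cells they would carry 19.2 of 225 CPM. The erythroid ratio pools clusters in which Rsad2 differed widely, as given above. Whether free RNA, doublets or the cells themselves account for any part of the Rsad2 in these types was not tested.

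Other members were past 1.5-fold in several types in both directions. Isg15 was lower in 6 of 16 types, among them monocyte-like cells (297 to 163 CPM, -0.87) and pericyte-like cells (239 to 145 CPM, -0.72), and higher in 3 types with few UMIs in WT, such as B-like cells (14 and 51 UMIs). Gbp5 was lower in 8 of 14 types, for example in monocyte-like cells (297 to 150 CPM, -0.99) and muscle stem-like cells (127.5 to 31.9 CPM, -1.997), and higher in macrophage-like, fibroblast-like and smooth muscle-like cells (13.4 to 33.6 CPM, 1.33). Irf1 was lower in 5 of 17 types, such as osteoblast lineage-like cells (346 to 197 CPM, -0.81) and B-like cells (210 to 101 CPM, -1.06). Bst2 was lower in 5 of 17 types, including T-like cells (209 to 88.7 CPM, -1.23) and plasmacytoid dendritic-like cells (-1.33, -1.61 to -1.05). Stat2, the partner of Irf9, was higher in 5 of 16 types and lower past 1.5-fold in 0.

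Beside the members, the ligands, receptors and regulators of the pathway were read from the same cells. Of 19 interferon genes found, 16 had no UMI in either library, all 13 Ifna genes among them, which allows up to 3 UMIs per library. Ifnb1 had 1 and 2 UMIs and Ifnk 9 and 10. Ifng, which encodes interferon gamma, had 258 and 291 UMIs, of which T-like cells held 212 and 241, at 438 and 306 CPM (-0.52, -0.79 to -0.25).

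Of the receptors, kinases, inhibitors and chemokines that could be compared, 2 of 14 were higher and 0 lower in endothelial-like cells, 2 of 14 and 0 in fibroblast-like cells, 4 of 16 and 0 in macrophage-like cells, and 1 and 2 of 16 in neutrophil-like cells. The shares of all genes in macrophage-like cells, 17.2% higher and 4.37% lower, lean the same way, and the other shares are those given above for each type. The chemokine Cxcl9, which draws T cells and is known as a target of interferon gamma, was higher in all 4. It went from 490 to 795 CPM in endothelial-like cells (0.70), from 293 to 695 CPM in fibroblast-like cells (1.248), from 179 to 486 CPM in macrophage-like cells (1.44) and from 60.2 to 90.97 CPM in neutrophil-like cells (0.60). Within the neutrophil-like cells it fell in cluster 21 (104.6 to 15.2 CPM, -2.79). It rose there in cluster 15 (16.5 to 42.7 CPM, 1.37) and cluster 16 (172.5 to 523.9 CPM, 1.60). Outside these 4 types, Cxcl9 was lower in pericyte-like cells, with 498 and 267 CPM (-0.90), and in erythroid-like cells, with 19.5 and 5.69 CPM (-1.78). It was higher in granulocyte-monocyte progenitor-like (11.8 to 398 CPM, 5.08) and osteoblast lineage-like cells (9.78 to 319 CPM, 5.03). Epithelial-like (5.01 to 29.7 CPM, 2.57) and B-like cells (37.3 to 139 CPM, 1.90) were also higher. WT UMIs were few in these, such as 3 in epithelial-like cells, so the limit of 50 UMIs was passed mainly through the mutant counts. Cxcl10 was higher in fibroblast-like cells (55.2 to 98.0 CPM, 0.83) and macrophage-like cells (63.8 to 198 CPM, 1.64) and not in neutrophil-like cells (355 and 302 CPM, -0.23). The feedback inhibitors Socs1 (45.6 to 21.3 CPM, -1.10) and Socs3 (82.2 to 51.0 CPM, -0.69) fell in neutrophil-like cells.

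In macrophage-like cells a Cxcl9 UMI was found in 29.02% of WT cells (median 18192 UMIs per cell) and 48.2% of mutant cells (17550.5). In B-like cells, which should lack the gene, the share was 2.72% (4013 UMIs) and 5.74% (5088.5 UMIs), and in erythroid-like cells 4.55% and 5.50%. The members were higher in the macrophage-like cells with a Cxcl9 UMI than in those without, at 3210 and 2023 CPM in WT and 3965 and 2323 CPM in the mutant.

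**Figure D5:**
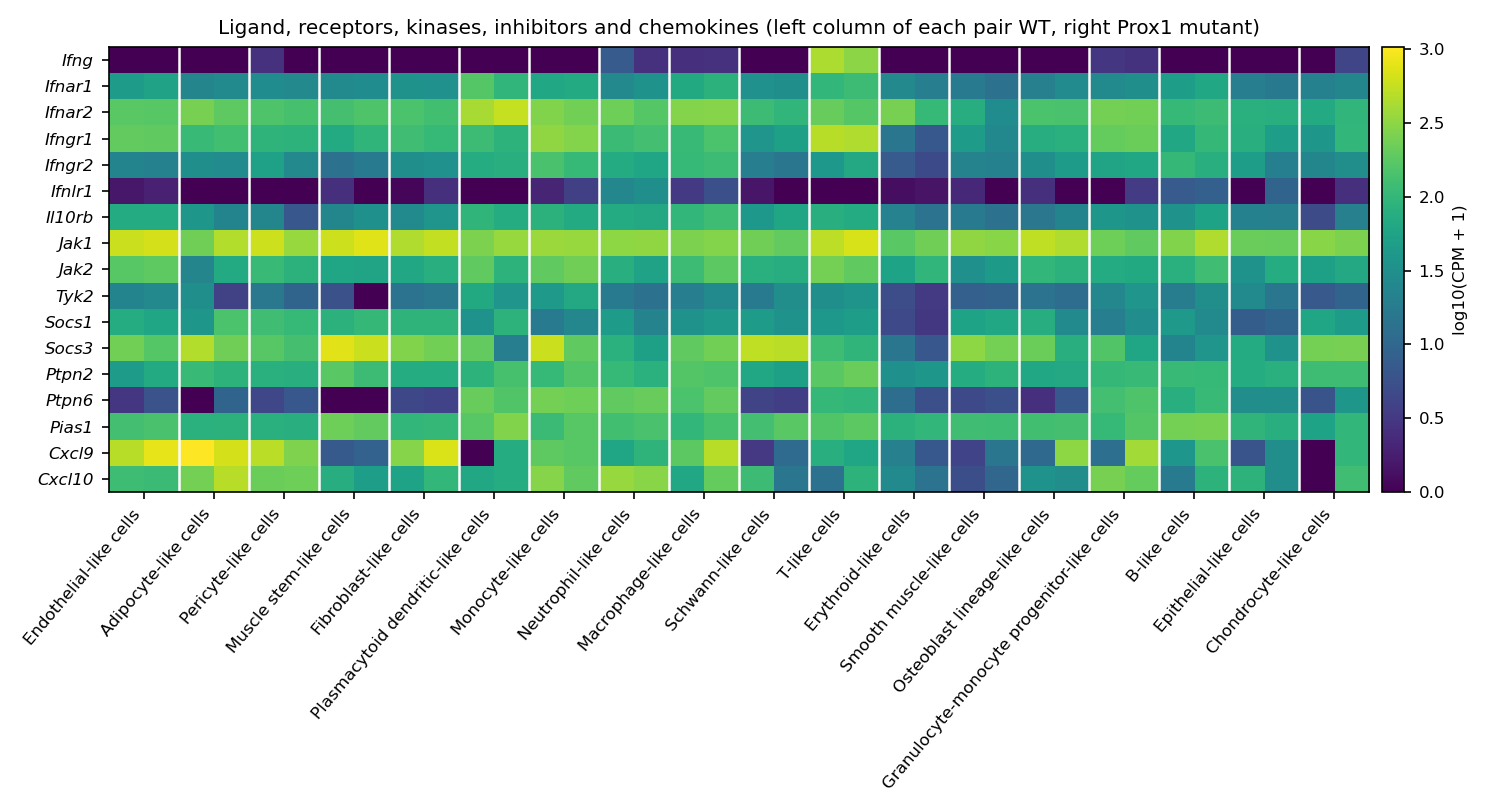
Level of interferon gamma, the interferon receptors, kinases, inhibitors and chemokines, as log10(CPM + 1), in 18 cell types, WT in the left and Prox1 mutant in the right column of each pair. Ifng is bright in T-like cells and dark in nearly all others, and Cxcl9 is brighter in the mutant column of macrophage-like and fibroblast-like cells.

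Finally, the member ratios were set beside the upstream letters. In neutrophil-like cells the 8 members with a GAS match had a median log2 ratio of -0.78, with 1 of them above 0. The 10 with an ISRE but no GAS match had a median of -0.29, with 4 above 0, and 7 with neither a median of 0.01. In fibroblast-like cells the medians were 0.04, -0.19 and -0.52 in the same order, and none of the 8 members with neither was above 0. In macrophage-like cells the 3 medians were 0.48, 0.39 and 0.52, and in endothelial-like cells 0.18, -0.10 and 0.03. Of the windows shown above, those of Irf1, Igtp and Gbp7, with GAS letters, belong to genes that were lower in neutrophil-like cells. Of those with ISRE letters alone, Rsad2 was higher there, Gbp2 and Isg15 were lower, and Ifit1 was at -0.08 (-0.48 to 0.32). The groups are small and share gene families, so these medians are a description only.

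The genes outside the list whose levels followed the summed members most closely were found by the correlation of log2(CPM + 10) over 35 points (cell types by library), which share libraries and depth. Among 11233 genes, Rnf213 had the highest Pearson r (0.86), followed by Parp12 (0.82), Znfx1 (0.78), Olfr56 (0.75), Gbp6 (0.75), H2-T23 (0.75), Tmem140 (0.73), Ifi35 (0.73), Parp9 (0.70) and Ifitm3 (0.69). Among the members themselves, r with the sum of the others ran from 0.20 for Oas1a, which shares 56.1% of its 3′ sequence words with Oas1g, to 0.81 for Igtp, which overlaps Irgm2 on the same strand.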

How the data were processed

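Single cells from the TMJ of CFA-injected WT and Prox1 mutant mice were captured by droplet, 1 library each. Per the labels, the authors made the deposited counts (UMIs per gene and cell, 3′ end) with Cell Ranger 7.0.1 on mm10 (GRCm38). The labels and the study's methods name different chemistries and dissociation enzymes, and whether intronic reads were counted or doublets removed was not given in the sources used here. All per-sample values were counts.

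Barcodes numbered 5709 (53517206 UMIs) in WT and 7846 (62446987 UMIs) in the mutant. Barcodes with under 500 genes, or with 10% or more of their UMIs from mitochondria, were dropped (R 4.3.3, Seurat 5.3.0, sctransform 0.4.2). Libraries were normalised with SCTransform and integrated by anchors on 2984 of 3000 requested features, the listed genes left out, with 200 components and resolution 1.5. A cluster was named where at least 3 markers of a type were raised, that is, at least 2-fold in CPM + 5 and present in at least 10% of its cells. Naming rules were set after the clusters had been seen. Counts were then summed by type and library (Python 3.11.15, numpy 2.4.6, scipy 1.17.1). Intervals were Poisson (CPM), exact binomial (ratios) and Clopper-Pearson (shares). Ratios needed 50 UMIs over both libraries and 20 cells in each. Doublets were scored with Scrublet (scanpy 1.11.5), whose automatic threshold called 2 WT and 1 mutant cells, so none were removed in the values given, and the 151 WT and 265 mutant cells with the highest scores were left out as an alternative. The libraries shared 10 barcodes, 4 of them among kept cells.

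The members and lists were chosen with earlier results of these data known. Members named were the 3 with the most UMIs in each role, those past 1.5-fold one way in at least 3 types, and the 3 highest and 3 lowest ratios in macrophage-like, neutrophil-like, endothelial-like and fibroblast-like cells. Other values were named after they had been seen. Upstream sequences came from RefSeq (GRCm38.p6), with 26 of the 34 listed genes matched. Cxcl11 and Mx1 were not analysed here. A further gene of the pathway list is not reported here. Alternatives covered cell filters, clustering, naming, depth, denominator, thresholds and single cells, and those on median-centred ratios, equally weighted clusters and added unnamed endothelial clusters were chosen after seeing the data. The calculations were tested on simulated data.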

Additional observations from a re-analysis of the deposited data

Results flagged for a closer look

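Over endothelial-like, fibroblast-like, macrophage-like and neutrophil-like cells, the ratio of mutant to WT lay past 1.5-fold in opposite directions in 6 members. The counting intervals of these ratios leave out 0. No share of all genes under this rule is given here, so the count is not a result about the members. In macrophage-like cells the median log2 ratio over all genes was itself 0.21. The difference between the types was not tested, since each condition had 1 library. Oasl1 was higher in macrophage-like (log2 ratio 1.11) and neutrophil-like cells (0.68) and lower in endothelial-like (-0.59) and fibroblast-like cells (-0.90). Cmpk2 was higher in macrophage-like cells (0.91) and lower in fibroblast-like cells (-0.63). Ifit3b was higher in neutrophil-like cells (0.66) and lower in fibroblast-like cells (-1.41). Among the GTPases, Gbp5 was higher in macrophage-like (0.87) and fibroblast-like cells (0.71) and lower in neutrophil-like cells (-0.79). Iigp1 (0.80 and -1.69) and Irgm2 (0.97 and -0.76) were higher in macrophage-like and lower in neutrophil-like cells. In neutrophil-like cells Iigp1 turned to 0.52 with cells assigned by marker UMIs and to 0.80 with log-normalization and no integration.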

How the results depend on the processing

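Of the values that answer a comparison, 132 stayed within their counting interval or within 1.5 times the count under an alternative, and 105 moved. Those that moved are given by alternative, with summed CPM over both libraries, and the cause was not tested. With limits of 200 genes and 20% mitochondrial UMIs, the number of lower members became 1 (endothelial), and the summed CPM became 4364 (fibroblast), 2755 (macrophage), 2843 (neutrophil), 3089 (all cells), and the log2 ratio of the sum became -0.057 (fibroblast), -0.47 (neutrophil), -0.16 (all cells), and the number of higher members became 2 (fibroblast), 1 (neutrophil), 1 (all cells). With limits of 1000 genes and 5% mitochondrial UMIs, the summed CPM became 8372 (endothelial), 3754 (fibroblast), 2820 (macrophage), 3405 (neutrophil), 3353 (all cells), and the number of lower members became 1 (endothelial), and the log2 ratio of the sum became -0.051 (fibroblast), 0.37 (macrophage), -0.14 (all cells), and the number of higher members became 1 (all cells). With log-normalization and no integration, the number of higher members became 2 (endothelial), and the summed CPM became 4461 (fibroblast), 2800 (macrophage), 2837 (neutrophil), and the log2 ratio of the sum became 0.38 (macrophage), -0.40 (neutrophil). With listed genes allowed among the features, the summed CPM became 3674 (fibroblast). With cell types from marker UMIs, the summed CPM became 8233 (endothelial), 3848 (fibroblast), 3771 (macrophage), 1885 (neutrophil), and the number of higher members became 1 (endothelial), 2 (fibroblast), 2 (macrophage), 1 (neutrophil), and the number of lower members became 1 (endothelial), 6 (neutrophil), and the log2 ratio of the sum became 0.072 (fibroblast), 0.29 (macrophage), -0.25 (neutrophil). With doublets removed, the number of higher members became 1 (endothelial), 2 (neutrophil), and the summed CPM became 3564 (fibroblast), 3299 (all cells), and the log2 ratio of the sum became -0.44 (neutrophil), -0.093 (all cells), and the number of lower members became 1 (all cells). With the mean of the CPM of each cell, the summed CPM became 8452 (endothelial), 3155 (fibroblast), 3219 (macrophage), 5611 (neutrophil), 3832 (all cells), and the log2 ratio of the sum became 0.089 (endothelial), 0.041 (fibroblast), 0.33 (macrophage), -0.65 (neutrophil), -0.35 (all cells). With a denominator without haemoglobin and mitochondrial genes, the summed CPM became 8496 (endothelial), 3740 (fibroblast), 2862 (macrophage), 2971 (neutrophil), 3583 (all cells), and the log2 ratio of the sum became -0.029 (all cells). Without the cell with the most member UMIs in each library, the summed CPM became 8244 (endothelial), 3579 (fibroblast), 2731 (macrophage), 2827 (neutrophil), 3258 (all cells). Without Iigp1, the summed CPM became 6132 (endothelial), 2520 (fibroblast), 2522 (macrophage), 2678 (all cells), and the log2 ratio of the sum became 0.026 (endothelial), -0.23 (fibroblast), 0.39 (macrophage). With a threshold of 2-fold, the number of lower members became 0 (endothelial), 2 (fibroblast), 3 (neutrophil), 1 (all cells), and the number of higher members became 0 (fibroblast), 1 (macrophage), 0 (neutrophil), 0 (all cells). With a minimum of 200 UMIs, the number of higher members became 2 (neutrophil). With ratios taken relative to the median gene, the log2 ratio of the sum became 0.022 (endothelial), -0.040 (fibroblast), 0.21 (macrophage), -0.023 (all cells), and the number of higher members became 4 (macrophage), and the number of lower members became 1 (all cells). With the clusters of a type weighted equally, the log2 ratio of the sum became 0.089 (endothelial), -0.37 (fibroblast), 0.24 (macrophage), -0.26 (neutrophil), and the number of higher members became 1 (endothelial), 5 (macrophage). With unnamed clusters with raised endothelial markers added, the number of lower members became 1 (endothelial). With cells thinned to 1000 UMIs, the percent of WT cells in which 0.5% or more of the UMIs were of members became 24.8 (fibroblast), 42.4 (neutrophil), 33.8 (all cells), and the percent of mutant cells in which 0.5% or more of the UMIs were of members became 24 (all cells). With cells thinned to 4000 UMIs, the percent of WT cells in which 0.5% or more of the UMIs were of members became 14.2 (neutrophil), 26.5 (all cells), and the percent of mutant cells in which 0.5% or more of the UMIs were of members became 15.2 (neutrophil). For 43 ratios of named members past 1.5-fold (4 of them over all cells), 335 of 338 values under alternatives kept their sign, 276 stayed past 1.5-fold and 3 turned. Iigp1 in neutrophil-like cells was 0.80 with log-normalization and no integration and 0.52 with cell types from marker UMIs, and Bst2 in neutrophil-like cells was 0.091 with the latter.

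No paired analysis was possible because each group had 1 library and the labels give no replicate numbers. With 1 library per condition, the ratios hold differences between animals, dissociations and captures as well as between genotypes, and these cannot be told apart. More mutant than WT cells lay in unnamed clusters, so the named types cover different shares of each library. Counts of free RNA and of doublets were not corrected. The log2 ratio of the sum stayed above 0 in macrophage-like and below 0 in neutrophil-like cells under every alternative run.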
